A study of Arabidopsis thaliana with 6 samples.

Results

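The 8 transposable element (TE) identifiers described here, from Arabidopsis thaliana, are AT1TE27295, AT4TE67560, AT4TE25050 and AT2TE43165 (the AT1G23915 group) and AT1TE44125, AT3TE70635, AT5TE44235 and AT5TE53465 (the AT1G36085 group). They were chosen by name from 382 TE identifiers with a transcript model, with their similarity to the annotated genes AT1G23915 and AT1G36085 and their presence by library already known. The 8 identifiers were paired with 30 of the 829 deposited models, 20 in the AT1G23915 group and 10 in the AT1G36085 group. Since sequence likeness and presence chose the members, both are given as a description, with no test.

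The data are full-length PCR-cDNA libraries from immature flower buds (inflorescence) of ecotype Columbia, read on an Oxford Nanopore MinION. The triple mutant ddm1 rdr6 polV had replicate B (sequencing round 2, higher depth per the labels, 13 PCR cycles) and replicate A (round 1, 14 PCR cycles). The genotypes ddm1 polV, ddm1 rdr6, ddm1 and wild type (wt) had 1 library each, all in round 1, and every mutant plant carried ddm1. Per the labels, mutant RNA was extracted with TriZOL LS and wt RNA with TriZOL, and alleles, plant numbers and the separateness of replicates A and B are not stated. A model is a cluster of long reads with one exon chain, and the whole number that ends its name, always at least 10, was read as its number of cluster reads. Summed over all TE models, cluster reads were 17106 in replicate B, 2317 in replicate A, 4303 in ddm1 polV, 3128 in ddm1 rdr6, 1212 in ddm1 and 136 in wt. Library totals are unknown, so where no model is listed no cluster reached 10 reads, and fewer transcripts cannot be told apart from less depth. With 1 library for most genotypes, differences between genotypes have no replicate check. The files hold TE models only, so neither the mutated genes nor markers of flower buds could be read.

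Mutator-like elements are DNA transposons that move by cutting and pasting, and the autonomous ones encode a transposase of the MuDR type. Plants keep them silent through DNA methylation, which the chromatin remodeler DDM1 maintains over TEs. RDR6 copies TE transcripts into double-stranded RNA that is cut into small interfering RNAs, and Pol V is the RNA polymerase whose transcripts guide methylation of DNA. Many Mutator-like elements carry further genes beside the transposase.

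All 8 loci gave the same kind of transcript, a short gene of 3 exons, and at 7 of them the longest frame opens at the first base of exon 2. Exon 2 is shown for AT1TE27295 and for the 4 loci of the AT1G36085 group, because it is nearly the same in both groups and holds the changes that break the frame of AT1TE44125. It was read 5′ to 3′ from the TAIR10.1 reference on the strand of the model, and capitals mark bases that differ from AT1TE27295. The other 3 loci of the AT1G23915 group (AT4TE67560, AT4TE25050 and AT2TE43165) had exon 2 identical to AT1TE27295.
AT1TE27295 (chr1:8457676-8457855, plus strand): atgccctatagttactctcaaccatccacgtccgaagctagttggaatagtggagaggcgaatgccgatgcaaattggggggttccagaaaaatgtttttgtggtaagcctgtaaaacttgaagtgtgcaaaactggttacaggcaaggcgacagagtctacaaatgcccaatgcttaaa
AT1TE44125 (chr1:13486472-13486651, minus strand): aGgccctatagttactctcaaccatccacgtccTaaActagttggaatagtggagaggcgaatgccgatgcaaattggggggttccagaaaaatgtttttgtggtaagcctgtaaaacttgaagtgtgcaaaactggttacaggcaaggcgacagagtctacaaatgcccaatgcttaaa
AT3TE70635 (chr3:17433459-17433638, plus strand): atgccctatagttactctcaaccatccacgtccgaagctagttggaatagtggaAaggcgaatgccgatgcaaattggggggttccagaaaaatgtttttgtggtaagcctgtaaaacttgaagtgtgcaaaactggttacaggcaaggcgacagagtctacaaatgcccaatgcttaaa
AT5TE44235 (chr5:12477993-12478172, minus strand): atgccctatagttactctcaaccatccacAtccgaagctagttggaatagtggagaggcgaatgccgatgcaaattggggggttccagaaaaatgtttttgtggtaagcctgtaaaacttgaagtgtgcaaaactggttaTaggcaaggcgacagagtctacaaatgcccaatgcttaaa
AT5TE53465 (chr5:14830453-14830632, plus strand): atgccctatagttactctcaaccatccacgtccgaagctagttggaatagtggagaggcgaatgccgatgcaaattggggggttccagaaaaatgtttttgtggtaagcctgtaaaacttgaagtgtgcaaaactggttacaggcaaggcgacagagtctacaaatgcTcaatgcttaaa

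The 60 bases before the 5′ end of the models are shown for 2 loci of each group, since these windows stayed alike across the groups while exon 1, which begins at their end, did not. Capitals mark CCTATTTATTCTC, the longest run that all 8 windows share.
AT1TE27295 (chr1:8457243-8457302, plus strand): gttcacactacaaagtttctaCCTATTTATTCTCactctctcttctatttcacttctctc
AT2TE43165 (chr2:10089761-10089820, minus strand): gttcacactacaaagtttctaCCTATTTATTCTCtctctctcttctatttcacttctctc
AT1TE44125 (chr1:13486915-13486974, minus strand): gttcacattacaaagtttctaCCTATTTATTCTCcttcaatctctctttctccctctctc
AT3TE70635 (chr3:17433046-17433105, plus strand): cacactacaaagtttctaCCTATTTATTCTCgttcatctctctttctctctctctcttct

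The first question was which loci gave a transcript in which genotype. The AT1G23915 group had a model at all 4 loci in replicate B and in ddm1 polV, at 3 loci in replicate A and in ddm1 rdr6, and at 2 loci in ddm1. The AT1G36085 group had a model at all 4 loci in replicate B and in ddm1 polV and at none in replicate A, ddm1 rdr6 or ddm1. Neither group had a model in wt. Of all 382 TE identifiers, 96.9% had a model in replicate B, 23.3% in replicate A, 40.3% in ddm1 polV, 28.0% in ddm1 rdr6, 14.4% in ddm1 and 1.83% in wt. Models in ddm1 polV and replicate B and in no other library were found for 5 of the 8 members, AT2TE43165 and all 4 of the AT1G36085 group, and for 11.5% of all TE identifiers. Models in all 5 mutant libraries were found for AT1TE27295 and AT4TE67560, and for 9.95% of all identifiers. As presence chose the members, nothing is read from these shares.

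Within the AT1G23915 group the loci stood in the same order of cluster reads in every library that held them. Their models are nearly identical in sequence, so the placing of reads among them is uncertain. AT4TE67560 (chr4:14283663-14284593, minus strand), in the pseudogene AT4G28970, had 425 reads in replicate B, 56 in replicate A, 115 in ddm1 polV, 70 in ddm1 rdr6 and 32 in ddm1, and no model in wt. AT1TE27295 (chr1:8457303-8458333, plus strand), of whose 692 exonic nt 579 overlap the protein-coding gene AT1G23915, had 257 reads in replicate B, 54 in replicate A, 77 in ddm1 polV, 60 in ddm1 rdr6 and 24 in ddm1, and no model in wt. Positions are those of the 3-exon model with most reads, on TAIR10. These loci were the highest pair in every mutant library, and their exact Poisson 95% intervals overlapped in replicate A (42.3 to 72.7 for AT4TE67560 and 40.6 to 70.5 for AT1TE27295), in ddm1 rdr6 (54.6 to 88.4 and 45.8 to 77.2) and in ddm1 (21.9 to 45.2 and 15.4 to 35.7). In ddm1 polV they overlapped narrowly (94.9 to 138 for AT4TE67560 and 60.8 to 96.2 for AT1TE27295). AT4TE67560 stood above AT1TE27295 by more than counting error in replicate B (386 to 467 against 227 to 290), where 98 of its reads came from a separate single-exon model.

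AT4TE25050 (chr4:5946804-5947736, minus strand), in the pseudogene AT4G09380, had 97 reads in replicate B, 23 in replicate A, 46 in ddm1 polV and 34 in ddm1 rdr6, and no model in ddm1 or wt. AT2TE43165 (chr2:10088864-10089760, minus strand), in the pseudogene AT2G23720, had 68 reads in replicate B and 21 in ddm1 polV, and no model in replicate A, ddm1 rdr6, ddm1 or wt. In replicate B, 12 reads at each of these loci came from a 5-exon model on the opposite strand. The 3-exon models there held 85 reads at AT4TE25050 and 56 at AT2TE43165. The intervals of this lower pair overlapped in replicate B (78.7 to 118 for AT4TE25050 and 52.8 to 86.2 for AT2TE43165) and did not in ddm1 polV (33.7 to 61.4 and 13.0 to 32.1).

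The 4 loci of the AT1G36085 group had fewer reads, in ddm1 polV close to the smallest cluster in the files. AT1TE44125 (chr1:13486029-13486914, minus strand), inside the protein-coding gene AT1G36085, had 24 reads in replicate B and 10 in ddm1 polV. AT3TE70635 (chr3:17433106-17434080, plus strand), at the pseudogene AT3G47320, had 27 in replicate B and 11 in ddm1 polV. Of its 27 reads, 17 came from a model on the opposite strand and 10 from the 3-exon model. AT5TE44235 (chr5:12477537-12478474, minus strand), where no annotated gene overlaps the exons, had 34 in replicate B and 13 in ddm1 polV. AT5TE53465 (chr5:14830151-14831076, plus strand), at the pseudogene AT5G37385, had 60 in replicate B and 10 in ddm1 polV. In ddm1 polV the 4 loci could not be told apart, with intervals between 4.80 and 22.2 reads that do not account for the minimum of 10. With a minimum of 15 reads 0 of the 4 would have a model there. In replicate B AT5TE53465 stood above AT1TE44125 (45.8 to 77.2 against 15.4 to 35.7), but 32 of its 60 reads came from a single-exon model. The plot of reads by library shows the AT1G36085 loci below all AT1G23915 loci in both libraries that hold them. In replicate B, however, the interval of AT5TE53465 overlapped that of AT2TE43165 (52.8 to 86.2). In ddm1 polV the intervals of all 4 loci overlapped that of AT2TE43165 (13.0 to 32.1).

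**Figure D1:**
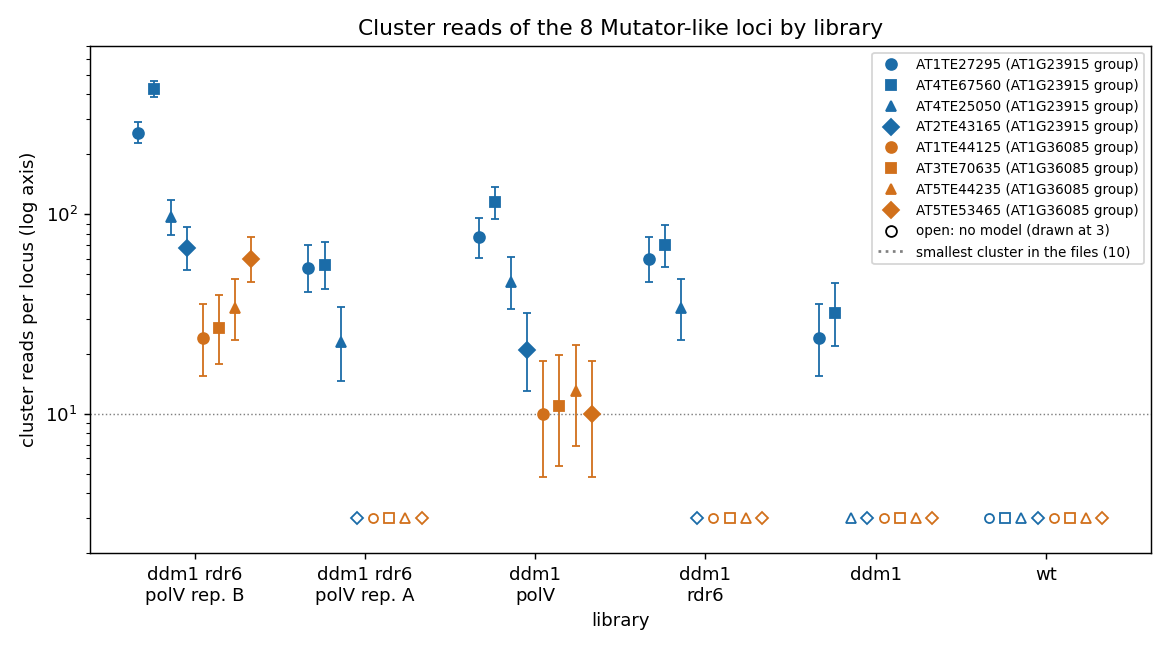
Cluster reads of each of the 8 loci (log axis) in the 6 libraries, with exact Poisson 95% intervals that cover counting error only. Open symbols at the bottom mark loci without a model, and the dotted line is the smallest cluster of 10 reads; the AT1G36085 group (orange) sits between 10 and 13 reads in ddm1 polV, where the AT1G23915 group (blue) sits between 21 and 115.

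The AT1G23915 group took between 4.62% and 6.02% of the TE cluster reads of each mutant library. It had 847 reads in replicate B, 4.95% of that library's TE cluster reads (exact Clopper-Pearson 95% interval 4.63 to 5.29). In replicate A it had 133 reads, or 5.74% (4.83 to 6.77). The share was 6.02% (5.33 to 6.77, 259 reads) in ddm1 polV, 5.24% (4.49 to 6.08, 164 reads) in ddm1 rdr6 and 4.62% (3.51 to 5.96, 56 reads) in ddm1. The intervals of replicates B and A overlapped, and ddm1 polV and replicate B did not overlap. PCR reads without molecular identifiers are not independent molecules, so the intervals are too narrow.

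The AT1G36085 group had 145 reads in replicate B, 0.848% of TE cluster reads (0.716 to 0.997), and 44 reads in ddm1 polV, 1.02% (0.744 to 1.37). The ratio of the AT1G23915 group to the AT1G36085 group was 5.84 in replicate B (4.89 to 7.02). In ddm1 polV the ratio was 5.89 (4.26 to 8.30). There each AT1G36085 locus held 10 to 13 reads, and a listed model needs at least 10. The members were chosen with this presence known, so the minimum limits how low the ddm1 polV share and how high the ratio could be. The intervals do not account for this limit. The near-equal ratios are therefore not read as the same proportion in both libraries. With the 3-exon models alone the ratio in replicate B was 7.55 (6.10 to 9.44, 725 over 96 reads). At the ratio of ddm1 polV, the AT1G36085 group would have had 5.65 reads a locus in replicate A, 6.97 in ddm1 rdr6 and 2.38 in ddm1. Each of these lies under the minimum of 10 reads, so at this depth the absence of the AT1G36085 group from those libraries cannot be told apart from its lower level.

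**Figure D2:**
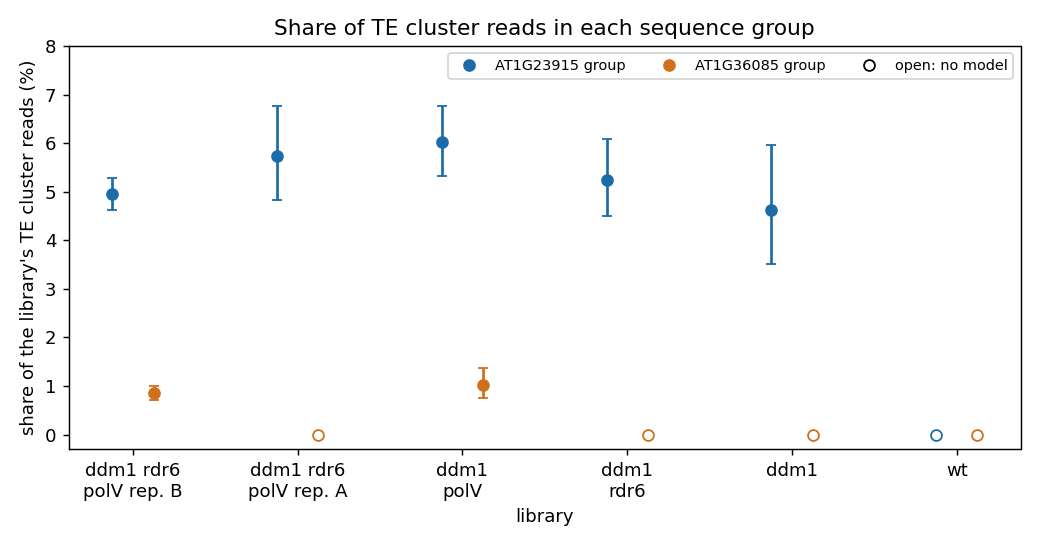
Share of each library's TE cluster reads (%) held by the AT1G23915 group (blue) and the AT1G36085 group (orange), with exact Clopper-Pearson 95% intervals for counting error. The blue shares lie between 4.62% and 6.02% in the 5 mutant libraries, and open symbols at 0 mark libraries without a model.

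The gene design was the same at all 8 loci. Of the 30 models, 25 had 3 exons (17 in the AT1G23915 group and 8 in the AT1G36085 group), against 12.8% of all 829 models. At least 1 model of 2 or more exons was found for each of the 8 identifiers, and for 58.4% of all 382. Spliced models numbered 19 of 20 in the AT1G23915 group and 8 of 10 in the AT1G36085 group, against 54.8% of all models. The members are near-copies chosen by likeness, and their 30 models repeat 8 loci over libraries. The series shares include the members, so nothing is read from these differences. Every unspliced member model, and every model on the opposite strand, came from replicate B, the library with most reads.

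Exon 2 had 180 nt at every locus and intron 2 had 79 nt, except 80 nt at AT5TE44235. Exon 1, which holds no part of the long frame, had 113 nt in all 17 models of the AT1G23915 group and 117 to 142 nt in the 8 models of the AT1G36085 group. Intron 1 set the loci apart. It had 260 nt at AT1TE27295, 218 nt at AT4TE67560 and AT4TE25050 and 176 nt at AT2TE43165, which are steps of 42 nt. Each of these introns matched itself best at a shift of 42 nt, over up to 41 unbroken bases (AT4TE67560), as a tandem repeat does. In the AT1G36085 group intron 1 had 124 nt at AT1TE44125, 218 nt at AT3TE70635, 169 nt at AT5TE44235 and 185 nt at AT5TE53465, and the 42-nt shift was found at all but AT5TE44235, where it was 34 nt.

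All 24 distinct introns of the member models began with GT and ended with AG, the usual splice letters. The 16 introns of the 3-exon models were each found in every library with a model of that locus, from 2 libraries at the AT1G36085 loci and AT2TE43165 to 5 libraries at AT1TE27295 and AT4TE67560. The 3-exon models of the AT1G23915 group had a median spliced length of 643 nt (634 to 698), and those of the AT1G36085 group 686 nt (662 to 748). The median of all 829 models was 693 nt.

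**Figure D3:**
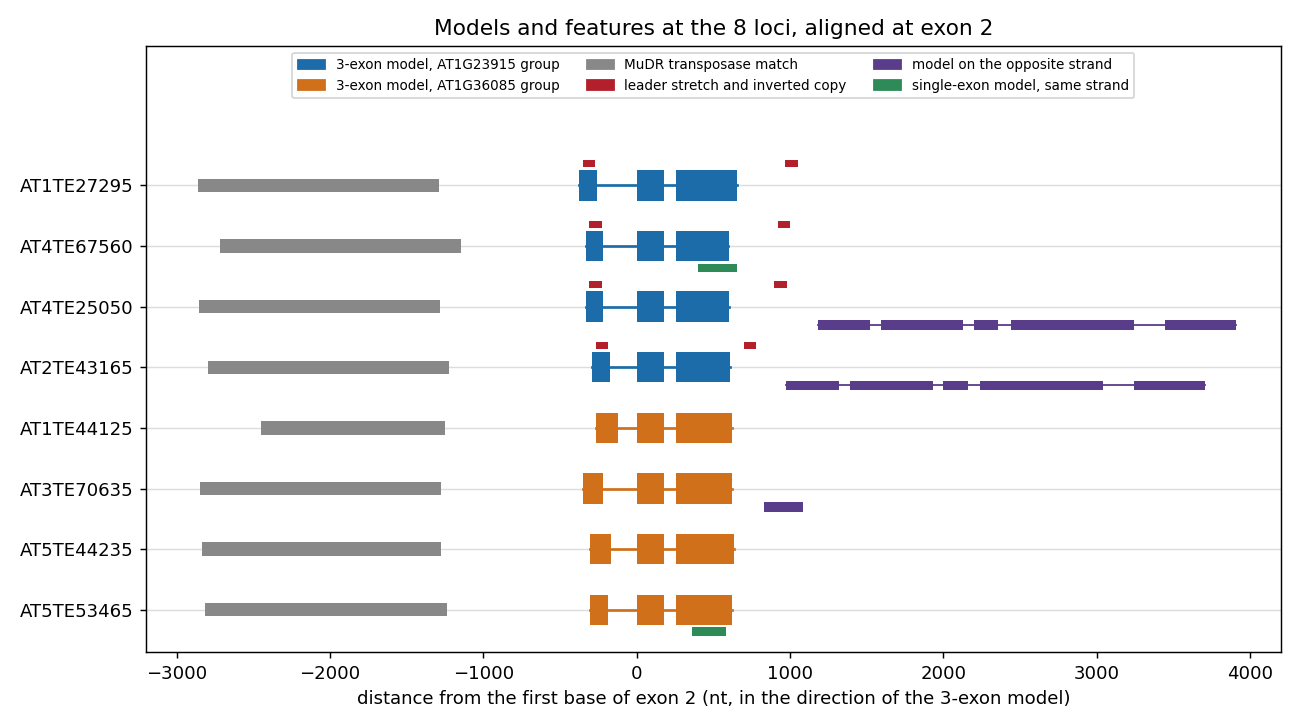
Exons of the 3-exon model with most reads at each locus, with the other models of the locus and features of the reference, placed by their distance in nt from the first base of exon 2 (the AT1G23915 group, blue, above the AT1G36085 group, orange). Exon 2 and intron 2 line up at all 8 loci, intron 1 varies from 124 to 260 nt, a stretch similar to a MuDR transposase (grey) lies upstream of each locus, and the red inverted leader copy is drawn at the 4 blue loci.

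The frame was intact at 7 of the 8 loci. There the longest frame from ATG to stop had 429 nt, or 142 codons before the stop, and began exactly at exon 2. It filled 61.5% to 67.7% of the 3-exon models in the AT1G23915 group and 57.4% to 64.8% at the intact AT1G36085 loci. In models of 600 to 750 nt over the whole series the longest frame had a median of 315 nt, 46.7% of the model. That set includes the members' own 3-exon models. In AT1TE44125 the longest frame had 258 nt, or 85 codons, and filled 37.9% of the model in ddm1 polV. Counting positions from 1 at the first base of exon 2, AT1TE44125 carried T2G, which removes the ATG, and G34T, which makes codon 12 a stop. Its 85-codon frame equals the annotated protein of AT1G36085, which the reference names a mutator-like transposase, and AT1TE27295 encodes the 142-codon protein of AT1G23915, named uncharacterized.

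The frames read as nearly the same protein in both groups. AT1TE27295 and AT4TE67560 had identical coding sequence. AT4TE25050 and AT2TE43165 shared the changes C182A, T336A and C348T against AT1TE27295, with 3 of 4 changes altering an amino acid at each. C182A and T336A also stood in AT1TE44125, a member of the other group, and G274A stood in AT2TE43165 and AT3TE70635. AT5TE44235 was the most diverged, with 9 changes, of which 6 altered an amino acid, and AT3TE70635 and AT5TE53465 had 3 each, all altering an amino acid. Compared end to end, and reading through the stop of AT1TE44125, proteins of different groups were 93.7% to 97.9% identical. Within the AT1G23915 group they were 97.9% to 100% identical, and within the AT1G36085 group 92.3% to 95.8%. By protein, the AT1G36085 loci were thus no closer to each other than to the other group.

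A translated search gave the same 5 proteins for every 3-exon model. After AT1G23915, AT1G36085 and AT3G28785 (also named mutator-like transposase, 85 residues) came AT4G04775 and AT5G15690, both named zinc ion binding protein, at 28.2% to 32.7% identity over 110 residues. No 3-exon model matched a full-length MuDR transposase at an e-value of 1e-05. The name Mutator-like therefore rests on the names of these 2 short proteins, and on the sequence next to the models. Upstream of each of the 8 models, on the same strand, the genome matched AT3G05850 (MUG7, a MuDR family transposase of 777 residues). The matches covered 526 to 538 residues at 24.7% to 25.5% identity, except 376 residues at 27.4% beside AT1TE44125. They ended between 813 and 985 nt before the 5′ end of the 3-exon model. No deposited model of any library overlapped these stretches, so clusters of 10 reads were found for the short gene and not for the transposase-like stretch.

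The groups differed in exon 1, in the 200 nt after the 3′ end and, with overlapping ranges, in the tail after the stop. They differed little in exon 2, intron 2 and the coding part of exon 3. Intron 1 varied between loci without separating the groups. The 300 nt before the 5′ end were 87.8% to 94.4% identical between groups, close to 88.2% to 92.4% within the AT1G36085 group and under 98.3% to 99.3% within the AT1G23915 group. Exon 1 was 49.3% to 55.9% identical between groups, against 98.2% to 100% within the AT1G23915 group and 79.4% to 95% within the AT1G36085 group. Intron 1 was 45.4% to 97.2% identical between groups, 67.7% to 98.2% within the AT1G23915 group and 50.5% to 79.4% within the AT1G36085 group. There AT3TE70635 was 97.2% identical to AT4TE67560 and AT4TE25050 of the other group, and at most 79.4% to loci of its own. Exon 2 was 98.3% to 99.4% identical between groups and intron 2 98.7% to 100%. Exon 3 up to the stop was 95.6% to 99.2% identical between groups. After the stop, identity between groups was 59.1% to 72.4%, against 79.5% to 99.1% within the AT1G36085 group and 59.2% to 95.7% within the AT1G23915 group. The lowest values within the AT1G23915 group were those with AT1TE27295, whose model had 150 nt after the stop, against 92 to 100 nt at the other 3 loci, and such length differences count as gaps. The 200 nt after the 3′ end were 44.4% to 50.9% identical between groups. They were 50.9% to 69.5% identical within the AT1G23915 group and 67.7% to 92.5% within the AT1G36085 group. All values compare reference sequence end to end, with gaps counted, and likeness formed the groups.

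**Figure D4:**
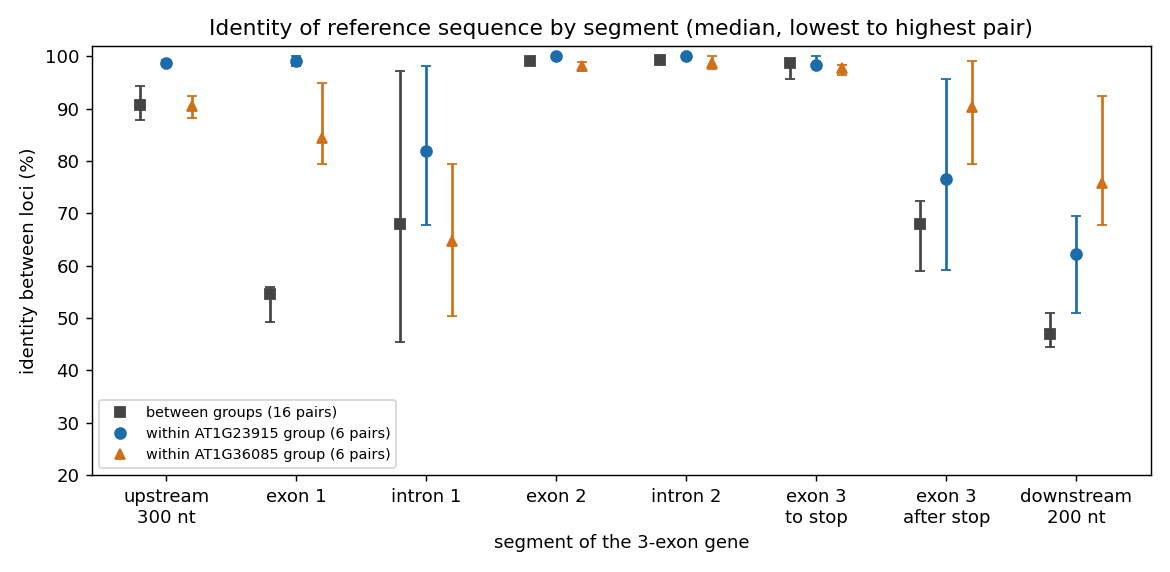
Identity (%) of the reference sequence between loci for each segment of the 3-exon gene and its flanks, as the median with the lowest and highest pair (16 pairs between groups, 6 within each). Between groups (grey squares), exon 1 lies at 49.3% to 55.9% while the 300 nt before it and exon 2 after it lie above 87%.

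This likeness limits how far reads can be placed. The 3-exon models of AT1TE27295 and AT4TE67560 differed at 2 of 634 aligned bases, and those of AT4TE25050 and AT2TE43165 at 3 of 636. Between these 2 pairs, 7 or 8 aligned bases and 2 gap bases differed over 634 to 640 nt. Nanopore cDNA reads carry errors of their own, so the split of reads among all 4 AT1G23915 loci is uncertain, most of all within each pair. The order of these loci by reads rests on that split. Between the groups 26 to 66 aligned bases differed besides gaps, so reads of the groups are easier to tell apart. The ratio of AT4TE67560 to AT1TE27295 in 3-exon reads ran from 1.04 in replicate A to 1.49 in ddm1 polV, with 1.27 in replicate B, 1.17 in ddm1 rdr6 and 1.33 in ddm1.

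The leader of the AT1G23915 group was also found in inverted direction at each of its loci. Bases 24 to 103 of the model (to 104 at AT4TE25050 and AT2TE43165) had an inverted copy, 97.5% to 100% identical, beyond the 3′ end. The copy began 313 nt after the 3′ end at AT1TE27295, 321 nt at AT4TE67560, 296 nt at AT4TE25050 and 92 nt at AT2TE43165. None of the 3-exon models reached it. No inverted match at an e-value of 1e-05 was found within 3000 nt on either side of the 4 AT1G36085 loci. Terminal inverted repeats, which many Mutator elements carry at their ends, were not seen in these windows apart from this stretch. Repeats farther out than 3000 nt were not searched for. AT4TE25050 and AT2TE43165 each had 1 more, shorter match to this stretch beside the copy. In the whole genome exon 1 of AT1TE27295 had 24 matches, of which 16 lay away from the 4 loci and had no model.

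Exon 2 had 12 copies in the genome at an e-value of 1e-10. All 8 members were among them, and the other 4 had no deposited model in any library. One of these 4, in the pseudogene AT5G44416 (chr5:17897275-17897454, minus strand), was 99.4% identical to exon 2 of AT1TE27295 and also had a leader 97.0% identical to that of AT3TE70635. The others lay in the pseudogene AT2G05000 (96.7%), in AT3G28785 (93.3%) and at an unannotated place on chromosome 5 (82.8% over 174 nt). Of the 11 copies with at least 90% identity, 8 had a model.

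Transcript starts were sharper in the AT1G23915 group than in the AT1G36085 group, beside higher read numbers. The 5′ end was the same base in all 3-exon models of each AT1G23915 locus, 17 models in all. It spanned 3 nt at AT1TE44125, 5 nt at AT3TE70635, 7 nt at AT5TE44235 and 16 nt at AT5TE53465. Of 97 intron chains (the same introns on the same strand) found in 2 or more models of the series, 58.8% had the same 5′ base each time. The 3-exon models of the AT1G36085 group held 10 to 34 reads and those of the AT1G23915 group 18 to 327. The part of read number was not tested. The 3′ ends spread more, over 55 nt at AT1TE27295, 41 nt at AT4TE67560, 13 nt at AT4TE25050 and 6 nt at AT2TE43165. In the AT1G36085 group they spanned 5 to 52 nt, and the median over the 97 chains was 8 nt.

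The exact letters TATAAA and AATAAA, forms of the TATA box and of the polyadenylation signal, were searched on the strand of the model. TATAAA within 50 bases before the 5′ end was found in 0 of the 25 3-exon models and in 21.8% of all 829 models. AATAAA within the last 50 bases was found in 0 of 25 and in 15.9% of all. The 25 models repeat 8 related loci over libraries, so they do not count as 25 separate sequences. The run CCTATTTATTCTC, shown above, ended 27 bases before the 5′ end at all 4 AT1G23915 loci and at AT1TE44125, and 30, 32 and 39 bases before it at AT3TE70635, AT5TE44235 and AT5TE53465. It was found in no other model's 60 bases, giving 3.02% of all models. The run was picked from the windows of these 8 loci, so this share is not a background rate. A stretch rich in A after the 3′ end (at least 6 of 10 genomic bases), where an oligo-dT primer can bind inside a transcript, was found after 0 of the 25 3-exon models and 2.53% of all models. Of the other 5 member models, the opposite-strand model of AT3TE70635 had such a stretch, with 6 A in these 10 bases.

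The other 5 models came from replicate B alone. A single-exon model of AT4TE67560 with 98 reads had 257 nt, began 142 nt inside exon 3 and ended 58 nt past the 3-exon model. A single-exon model of AT5TE53465 with 32 reads had 221 nt, began 105 nt inside exon 3 and ended 39 nt short of the 3-exon model. Both lay on the strand of the gene and held no part of its leader.

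The other 3 models ran on the opposite strand, toward the 3-exon gene. Models on both strands were found for 3 of the 8 members and for 2.62% of all TE identifiers. AT4TE25050 had a model of 5 exons and 2298 nt (12 reads, in the pseudogene AT4G09370) whose frame of 2001 nt filled 87.1% of it. AT2TE43165 had its near-copy of 5 exons and 2307 nt (12 reads, in the pseudogene AT2G23710) with a frame of 1779 nt, and the 2 differed at 9 of 2296 aligned bases. They ended 579 nt (AT4TE25050) and 364 nt (AT2TE43165) from the 3′ end of the 3-exon model with most reads at their locus. Their best protein match was AT2G06420, named an En/Spm-like transposon protein with a DUF1985 domain, at 36.8% and 35.5% identity over 220 residues.

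Sequence similar to this 5-exon model lay at most of the other loci too. It covered 93.5% to 100% of the model in inverted direction downstream of AT1TE27295, AT4TE67560, AT1TE44125, AT3TE70635 and AT5TE53465, and 20.5% beside AT5TE44235. Of these 6 loci, only AT3TE70635 had a convergent model, with 1 exon of 255 nt and 17 reads and the A-rich stretch after its 3′ end, which overlapped the pseudogene AT3G47330 by 54 nt and ended 204 nt from the 3-exon models. With 12 reads each, the 5-exon models lay near the minimum of 10, and their absence from the other libraries cannot be told apart from depth.

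Among loci outside the groups, 3 had reads most like the AT1G23915 group over the 6 libraries by Pearson's r of log2(reads + 1), a description over libraries that share depth. These were AT4TE15820 (r = 0.972), AT2TE19610 (0.970) and AT1TE52925 (0.966). AT4TE15820 had 813 reads in replicate B, 68 in replicate A, 280 in ddm1 polV, 100 in ddm1 rdr6 and 39 in ddm1. For the AT1G36085 group they were AT2TE20105, AT2TE20205 and AT4TE89790 (r = 1.000 each), with 29 to 32 reads in replicate B, 10 or 11 in ddm1 polV and no model elsewhere, which any locus near the minimum with this presence gives.

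Only 4 other TE identifiers had a model whose best match among 79 proteins with TE names was one named as Mutator or MuDR. AT3TE50570 (best match AT3G05850) had 37 reads, AT5TE73780 (AT5G15685) 34, AT1TE39390 (AT1G49680) 17 and AT5TE19520 (AT1G06740, MUG3) 11. All 4 were found in replicate B only.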

How the data were processed

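The authors deposited, for each of the 6 libraries, transcript models with exon coordinates and a list pairing models with TE identifiers. The submitters' processing notes name minimap2 and TAIR10, and per the file headers the models come from pinfish. No source used here gives versions or cluster settings. The deposited files hold no abundance column. The whole number ending each model name was read as cluster reads, which the files do not state. Other numbers in these files are coordinates.

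Members were found by their TE identifiers, and groups were taken from sample titles. The members and lists were chosen with earlier results of these data known. Named loci were the 8 members, AT1G23915 and AT1G36085, the 3 loci per group with the most similar reads, and other loci matching Mutator or MuDR proteins; pseudogenes, further protein matches and genome copies were named after their values were seen. Sequence came from TAIR10.1. Of 509 introns in all models, 501 (98.4%) were GT-AG there, and 0 models ran past a chromosome end. Per locus, the 3-exon model with most reads stood for the gene. Identity came from end-to-end alignment, frames from the longest ATG to stop, copies and protein matches from BLAST+ 2.17.0 (translated searches over 27444 reference proteins). Python 3.11.15, biopython 1.88, scipy 1.17.1, numpy 2.4.6 and matplotlib 3.10.9 were used. Functions were tested on simulated data. Poisson and Clopper-Pearson intervals have a 95% level and cover counting error only. No test between genotypes was made, since each had 1 library except the triple mutant, whose replicates may be technical.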

Additional observations from a re-analysis of the deposited data

How the results depend on the processing

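Of 56 alternatives computed, 48 left counts of loci or groups and frame lengths within 1.5 times, reads and shares within their 95% interval, or median lengths within 1 SD of the models. Within these limits, a minimum of 20 reads left the AT1G36085 group 3 loci in replicate B, against 4, and frames from stop to stop had 441 nt in the AT1G23915 group and 471 nt in the AT1G36085 group, against 429 nt in each. Counting only the model with most reads at each locus gave the AT1G23915 group 725 reads in replicate B, against 847 summed, and the AT1G36085 group 107, against 145. With a minimum of 15 or 20 cluster reads, 0 loci of the AT1G36085 group had a model in ddm1 polV, against 4. Sequence groups formed at 70% identity over 50% of the shorter model gave 1 group, against 2 at 80% over 80%. With 1 model a locus the median length of the AT1G36085 group was 469 nt, against 682 nt, because the single-exon or opposite-strand model had most reads at AT3TE70635 and AT5TE53465. Without replicate A or B of the triple mutant, spliced models made up 94.1% to 100% of the AT1G23915 group and 80% to 100% of the AT1G36085 group. No paired analysis was possible because the genotypes have 1 library each and replicates A and B belong to the same genotype. Library totals are unknown, so depth limits every presence, above all for the AT1G36085 group, whose models in ddm1 polV held 10 to 13 reads.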
